A study of Mus musculus with 18 samples.

Results

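The genes of 7 matrix metalloproteinases (MMP) and of 3 tissue inhibitors of metalloproteinases (TIMP) were followed in 18 tumors grown from K7M2 cells. The members were Mmp2, Mmp3, Mmp10, Mmp11, Mmp13, Mmp14, Mmp19, Timp1, Timp2 and Timp3. They were taken by name from the expression matrix, and all 10 were among its 20878 genes. K7M2 is a mouse osteosarcoma line that can grow in immunocompetent Balb/c mice, the strain it came from. Cells carrying a control shRNA (CT) or an shRNA against Atrx (KD), a chromatin remodeler, were grafted into Balb/c mice or into NSG mice. NSG mice are of the NOD background, carry Prkdc scid and Il2rg alleles and lack T, B and NK cells. Host strain and immune status therefore differ together and cannot be told apart. The 4 groups were Balb/c CT (4 tumors, mice 41, 43, 44 and 45), Balb/c KD (4 tumors, mice 56, 58, 59 and 60), NSG CT (5 tumors, mice 1 to 5) and NSG KD (5 tumors, mice 26 to 30). Each tumor came from its own female young adult mouse. Whole cages were assigned to 1 kind of cell, so effects of cage and of shRNA cannot be told apart. All groups carry an shRNA, and whether each stable line was a clone or a mixed population is not given in the sources used here. The p-values therefore measure the spread between mice within a line.

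MMPs are zinc-dependent proteases that cut collagens and other proteins of the extracellular matrix, and most are made as inactive proenzymes. TIMPs block them by occupying the catalytic site. In bone, Mmp13 is made by osteoblasts and hypertrophic chondrocytes, and Mmp14 at the cell surface activates the proenzyme of Mmp2 in a complex that includes Timp2.

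On mm10, the build of the deposited annotation, 3 members lie in a cluster on chromosome 9. These are Mmp13 at chr9:7272514-7283333, Mmp3 at chr9:7445822-7455975 and Mmp10 at chr9:7502342-7510242, each on the plus strand and with 10 exons. The gap from Mmp13 to Mmp3 was 162488 bases and that from Mmp3 to Mmp10 46366 bases. The promoter windows of these genes are shown because the 3 members share letters there that the other 5 members with a known window lack. The sequences are from RefSeq on GRCm38.p6 and cover the 100 bases upstream of each annotated start, 5′ to 3′ on the plus strand, with the AP-1 letters TGANTCA and the TATA box letters TATAAA in capitals. The window of Mmp13 is chr9:7272414-7272513, that of Mmp3 chr9:7445722-7445821 and that of Mmp10 chr9:7502242-7502341. That of Mmp14, chr14:54431498-54431597, is shown for contrast and has neither motif.
Mmp13: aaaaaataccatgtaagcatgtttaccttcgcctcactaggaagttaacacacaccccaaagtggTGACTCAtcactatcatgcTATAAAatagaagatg
Mmp3: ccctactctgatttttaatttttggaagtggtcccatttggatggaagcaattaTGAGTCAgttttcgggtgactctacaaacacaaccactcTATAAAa
Mmp10: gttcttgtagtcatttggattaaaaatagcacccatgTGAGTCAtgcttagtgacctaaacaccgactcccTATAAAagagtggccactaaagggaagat
Mmp14: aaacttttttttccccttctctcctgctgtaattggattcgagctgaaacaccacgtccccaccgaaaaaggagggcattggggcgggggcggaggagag

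The AP-1 letters began at position -35 in Mmp13, -46 in Mmp3 and -63 in Mmp10, counted from the annotated start, and did not overlap the TATA letters. The TATA letters began at -16, -7 and -29 in the same order, and the start used in these tumors was not measured. In windows of 250 bases before to 50 after the start, read on both strands, TGANTCA was found in 3 of the 8 members that matched the RefSeq table, against 7.81% of 32851 promoters. TATAAA was found in the same 3 members, against 13.6% of promoters, and the GC box letters GGGCGG in 5 of 8, against 35.7%. Mmp2 and Mmp19 were not matched. A match of letters is a description and not a bound site.

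The other members lie apart. Mmp2 is at chr8:92827297-92853421, Mmp14 at chr14:54431598-54442456 and Timp2 at chr11:118301061-118355411. On chromosome 10 lie Mmp11 (chr10:75923222-75932502), Timp3 (chr10:86300412-86349505) and Mmp19 (chr10:128790910-128800827), and Timp1 is at chrX:20870166-20874737. Timp1 overlaps Syn1, Timp3 overlaps Syn3 and Timp2 overlaps BC100451, in each case with 0 exonic bases shared. The exons of Mmp19 share 792 bases with Tmem198b on the opposite strand. The kit marked the strand, but whether quantification used it is not given in the sources used here, so part of the Mmp19 level may be read from either gene. Of windows of 75 bases, 65 were identical between Mmp3 and Mmp10, which is 3.76% of those of Mmp3 and 3.94% of those of Mmp10. Their levels are uncertain to that extent.

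Values are in FPKM, fragments scaled to transcript length and library size, so levels can be set side by side between genes. A dependence on transcript length remained that differed between libraries, as described below, and it limits such comparisons. The estimated depth was 15150000 to 25200000 fragments per tumor, and 16108 to 18212 genes were above 0. Atrx, the target of the shRNA, was 13.4, 26.0, 10.3 and 20.7 FPKM in Balb/c CT and 21.5, 7.88, 9.11 and 17.3 in Balb/c KD, in the order of mouse numbers. In NSG hosts it was 16.2, 11.6, 24.4, 15.1 and 20.5 FPKM in CT and 8.42, 16.4, 8.59, 8.88 and 8.59 in KD. The libraries labelled KD and CT therefore overlapped in both hosts, and a two-sided exact permutation test gave p = 0.486 in Balb/c and p = 0.0317 in NSG. A set of 6 libraries stood apart by their length slope, the change in log2 level per doubling of transcript length relative to the mean over tumors, which was 0.10 to 0.21 in them and at most -0.00017 in the other 12. They were Balb/c CT 43 and 45, Balb/c KD 56 and 60, NSG CT 3 and NSG KD 27, and they held the highest Atrx values of each group. In the other 12 libraries Atrx did not overlap between CT and KD in either host. It was 13.4 and 10.3 FPKM in Balb/c CT against 7.88 and 9.11 in Balb/c KD. In NSG hosts it was 11.6 to 20.5 FPKM in CT against 8.42 to 8.88 in KD. The Atrx difference among these 12 was not tested. Differences without them are given where a call or a value turned on them.

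In each of the 18 tumors the 3 TIMP members together were more abundant than the 7 MMP members together. The summed level of the 3 TIMP genes ranged from 278 to 497 FPKM and that of the 7 MMP genes from 116 to 188 FPKM. Their ratio ranged from 1.77 in NSG KD 27 to 3.04 in NSG CT 2, with a mean of 2.49 ± 0.377 (SD, n = 18). By group the ratio was 2.49 ± 0.323 in Balb/c CT, 2.47 ± 0.508 in Balb/c KD, 2.66 ± 0.355 in NSG CT and 2.33 ± 0.377 in NSG KD (SD, n = 4, 4, 5 and 5). The 4 ranges overlapped. This ratio covers the members only. The 16 other MMP genes, of which Mmp12 and Mmp9 were the abundant ones, summed to 102 to 217 FPKM per tumor and are left out of it. A ratio that includes them was not computed. NSG KD 27, with the lowest ratio, is a library of high length slope, and the ratio was not computed with the length trend removed. The ratio of RNA levels says nothing of the balance of the proteins.

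**Figure D1:**
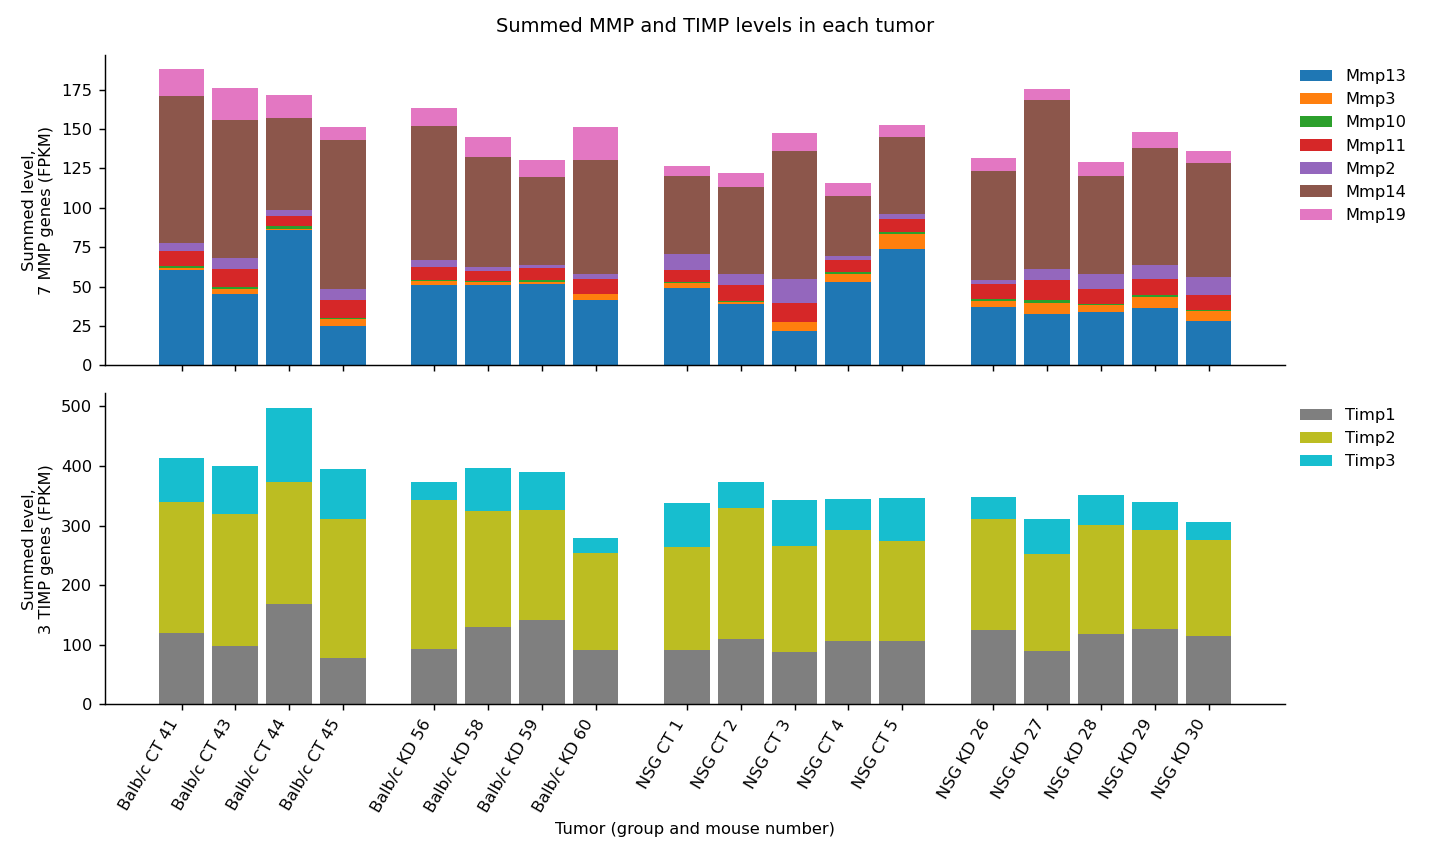
Summed level (FPKM) of the 7 MMP genes (upper) and the 3 TIMP genes (lower) in each of the 18 tumors, stacked by gene, with a bar per tumor. Mmp14 and Mmp13 made up most of the MMP sum and Timp2 was the largest TIMP share in every bar, and the TIMP sum exceeded the MMP sum in all 18 tumors.

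Timp2, which inhibits MMPs and takes part in activating the Mmp2 proenzyme, was the most abundant member in each tumor, at 161 to 249 FPKM. Timp1, an inducible inhibitor, followed at 77.8 to 169 FPKM. Averaged over the 18 tumors, the levels were 192 FPKM for Timp2, 111 for Timp1, 70.9 for Mmp14, 60.8 for Timp3, 45.4 for Mmp13, 11.1 for Mmp19, 9.20 for Mmp11, 6.25 for Mmp2, 4.03 for Mmp3 and 1.08 for Mmp10. The members thus spanned low and high parts of the transcriptome: 97.8% of the genes had a lower mean than Timp2, and 42.1% a lower mean than Mmp10. A gap separated Mmp13 from Mmp19, since Mmp13 was above Mmp19 in 18 of 18 tumors with ranges that did not overlap. The other neighbours in this order overlapped in range across the 18 tumors. Timp2 was above Timp1 in 18 of 18 tumors, whereas Mmp19 was above Mmp11 in 9 of 18 and Mmp14 above Timp3 in 12 of 18.

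The order within groups differed at these close neighbours. Timp3 was the third gene in Balb/c CT and NSG CT, with Mmp14 next, and Mmp14 was the third in Balb/c KD and NSG KD. Mmp14 took 32.0% to 62.5% of the MMP sum and Mmp13 14.7% to 50.0% over the 18 tumors. The spread between tumors also differed by gene. The highest value was 1.55 times the lowest for Timp2 and 2.11 times for Mmp11, but 9.27 times for Mmp2 and 10.2 times for Mmp3. Mmp10 rested on 12.2 to 79.8 estimated fragments per tumor and Mmp3 on 31.7 to 261, against 9025 to 19606 for Timp2, so counting error weighs most on those 2 genes.

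**Figure D2:**
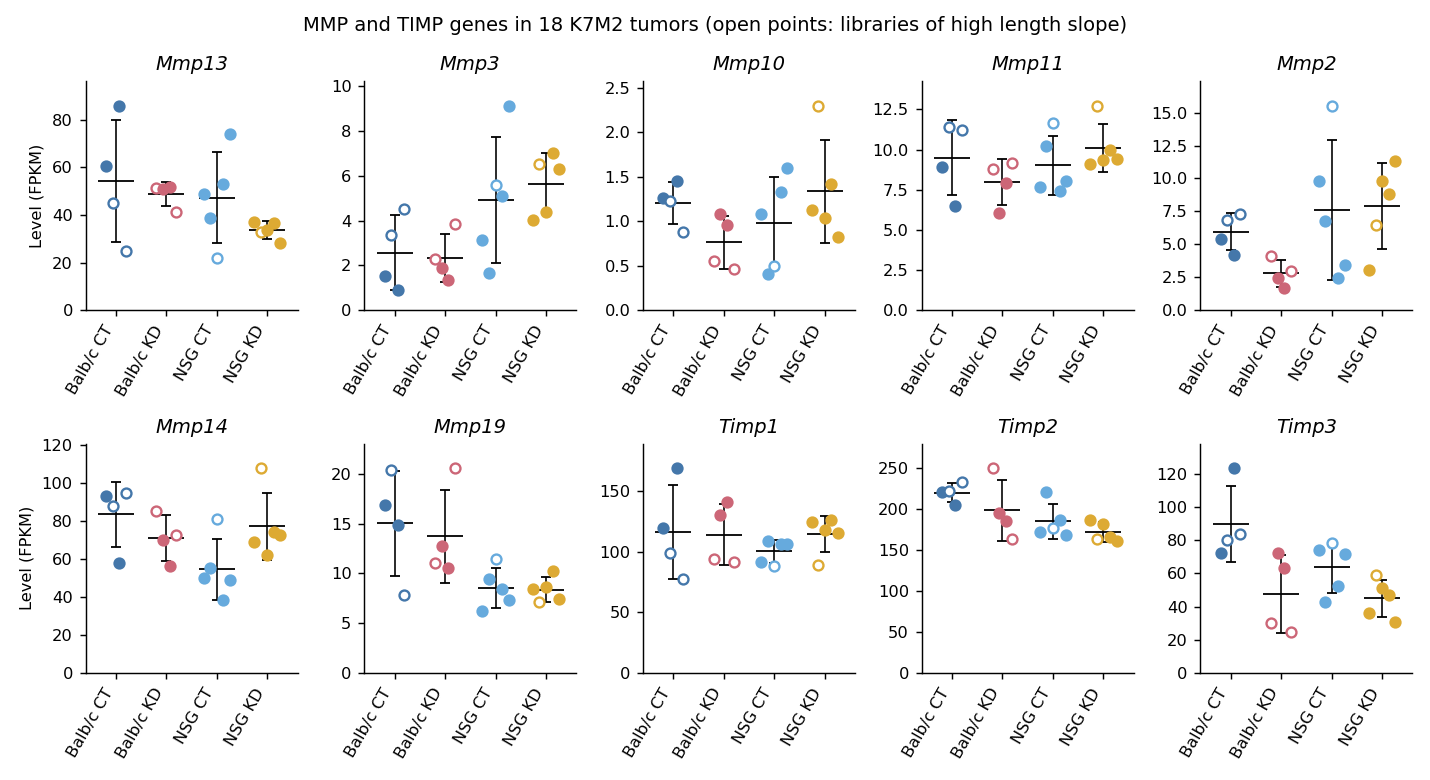
Level in FPKM of each member in the 18 tumors, by group. Each point is a tumor, open points are the 6 libraries of high length slope, and bars show the mean ± SD of the group (n = 4, 4, 5 and 5). Mmp2 and Timp3 do not overlap between Balb/c CT and KD, and Mmp3, Mmp13 and Mmp19 do not overlap between Balb/c KD and NSG KD.

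The first question was whether knock-down of Atrx changed these genes. In Balb/c hosts, no member passed an adjusted p under 0.05 with a fold of at least 2 in limma, over 14701 genes tested of which 1 (0.0068%) passed. At an unadjusted p under 0.05, 3 of the 10 were lower in KD (Mmp2, Mmp10 and Timp3) and none higher, against 4.14% of all tested genes in either direction. For 2 members, Mmp2 and Timp3, the KD and CT groups did not overlap, both lower in KD, and 3.18% of all tested genes did not overlap in either direction. The median difference over the 10 members was -0.19 on the log2 scale, against -0.0032 over all tested genes. Differences are in log2 (FPKM + 1), which understates the change of low genes.

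Mmp2, gelatinase A, was 5.42, 6.85, 4.22 and 7.29 FPKM in Balb/c CT and 4.11, 2.46, 1.67 and 2.95 FPKM in Balb/c KD. The lowest CT tumor, 44, was just above the highest KD tumor, 56. The difference was -0.89 (SE 0.23, limma adjusted p = 0.565), with p = 0.0286 in the exact permutation test, the smallest that 4 against 4 tumors allow. Without the 4 Balb/c libraries of high length slope it was -0.93 (adjusted p = 0.362). In NSG hosts Mmp2 was the most variable member within a group, at 9.79, 6.77, 15.5, 2.46 and 3.45 FPKM in CT and 3.05, 6.49, 9.79, 8.86 and 11.4 FPKM in KD. The groups overlapped throughout, with a difference of 0.18 (SE 0.43, 95% interval -0.75 to 1.11, adjusted p = 0.825), and of 0.51 (adjusted p = 0.421) without CT 3 and KD 27.

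Timp3, the inhibitor that binds to the extracellular matrix and also blocks several ADAM proteases, was 72.6, 80.1, 123 and 83.8 FPKM in Balb/c CT and 30.4, 72.1, 63.3 and 24.5 FPKM in Balb/c KD. The KD tumors formed the pair 56 and 60, which were low, and the pair 58 and 59, which lay close to the CT range. The difference was -1.02 (SE 0.34, adjusted p = 0.958, exact permutation p = 0.0286). Tumors 56 and 60 are the KD libraries of high length slope, and without the 4 such libraries of Balb/c hosts the difference was -0.48 (adjusted p = 0.779). In NSG hosts Timp3 was 74.0, 43.0, 78.4, 52.2 and 71.7 FPKM in CT and 36.5, 59.3, 51.1, 47.1 and 30.7 FPKM in KD. These groups overlapped, and the difference was -0.50 (SE 0.21, adjusted p = 0.149, exact permutation p = 0.0635). The direction was the same in both hosts, but neither passed the adjusted test.

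In NSG hosts no member was called either, and 68 of 14654 genes (0.464%) were. Before adjustment, Mmp14 was higher and Timp3 lower in KD at p under 0.05. These 2 of 10 members were no larger a share than the 26.3% of all tested genes that passed this criterion. No member separated the groups without overlap, against 7.5% of all tested genes. The median difference over the members was 0.17, against -0.0014 over all tested genes.

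Mmp14, the membrane-anchored collagenase that activates the Mmp2 proenzyme, was 49.8, 55.1, 80.9, 38.2 and 48.7 FPKM in NSG CT and 69.0, 107.5, 62.2, 74.3 and 72.7 FPKM in NSG KD. The KD tumors were above 4 of the 5 CT tumors, and the exception, CT 3, is a library of high length slope. The difference was 0.51 (SE 0.19, adjusted p = 0.119, exact permutation p = 0.0476). Without CT 3 and KD 27, the highest tumor of each group, it was 0.54 (adjusted p = 0.0226), still under the fold of 2. With library weights and a robust prior, set together, it was 0.57 (adjusted p = 0.00522), also under that fold. In Balb/c hosts Mmp14 was 93.2, 87.9, 58.0 and 94.4 FPKM in CT and 85.3, 69.7, 56.1 and 72.7 FPKM in KD. The groups overlapped, with a difference of -0.22 (SE 0.19, adjusted p = 0.999).

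The other members did not separate CT from KD. Mmp13, collagenase of fibrillar collagen, varied more in CT than in KD tumors of both hosts. It was 60.6, 45.2, 85.8 and 24.9 FPKM in Balb/c CT and 51.1, 50.9, 51.7 and 41.3 FPKM in Balb/c KD. In NSG hosts it was 48.9, 38.8, 21.7, 52.9 and 74.1 FPKM in CT and 37.2, 32.9, 33.7, 36.5 and 28.1 FPKM in KD. The coefficient of variation was 47.5% and 40.6% in the CT groups and 10.2% and 10.7% in the KD groups, and this spread was not tested. The difference of means was -0.022 (SE 0.32) in Balb/c, or -0.48 (adjusted p = 0.638) without the libraries of high length slope. In NSG it was -0.38 (SE 0.25, adjusted p = 0.365), or -0.62 (adjusted p = 0.0497) without CT 3 and KD 27.

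The stromelysins Mmp3, Mmp10 and Mmp11 differed between KD and CT by -0.33 to -0.024 in Balb/c and by 0.16 to 0.28 in NSG. Mmp10, the lowest member, was 0.404 to 2.30 FPKM over all tumors, and in Balb/c hosts it differed by -0.33 (SE 0.14, adjusted p = 0.999). Without CT 3 and KD 27 the NSG difference of Mmp10 was 0.026 in place of 0.25. Mmp11, which is activated inside the cell by furin, was 6.02 to 12.7 FPKM. Timp1 differed by 0.0046 (95% interval -0.56 to 0.57) in Balb/c and by 0.18 (-0.062 to 0.43) in NSG. Timp2 differed by -0.17 (-0.52 to 0.19) in Balb/c and by -0.10 (-0.31 to 0.11) in NSG. The intervals for Timp1 and Timp2 exclude a change of 2-fold, which is 1 on this scale, in either direction. In this fit so do those of Mmp11, Mmp13, Mmp14 and Mmp19 in both hosts. In NSG those of Mmp13 and Mmp14 reached -0.94 and 0.93, and intervals were not computed for the alternative settings. The intervals of Mmp3 and Mmp10 also exclude a change of 2-fold, but the scale understates the change of such low genes.

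Whether the shRNA effect differed between hosts was tested as an interaction over the 4 groups. No member was called, nor any of 14803 genes (0%). At an unadjusted p under 0.05, 2 members were lower (Mmp10 and Mmp14) and none higher, against 10.3% of all tested genes in either direction. Without the 6 libraries of high length slope the interaction of Mmp10 was -0.25 in place of -0.58. The interaction of Mmp14 was -0.73 (SE 0.29, adjusted p = 0.410), and that of Mmp2 -1.07 (SE 0.55, adjusted p = 0.526). With library weights and a robust prior, set together, the value of Mmp2 was -1.76 (adjusted p = 0.0312), and it was then the only member called. Over 7 alternative settings, the lowest limma adjusted p of the interaction was 0.0146 for Mmp14 and 0.0388 for Mmp11. Their values stayed under the fold of 2, at -0.97 to -0.67 and at -0.59 to -0.29. The median over the members was -0.34, against 0.0038 over all tested genes.

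**Figure D3:**
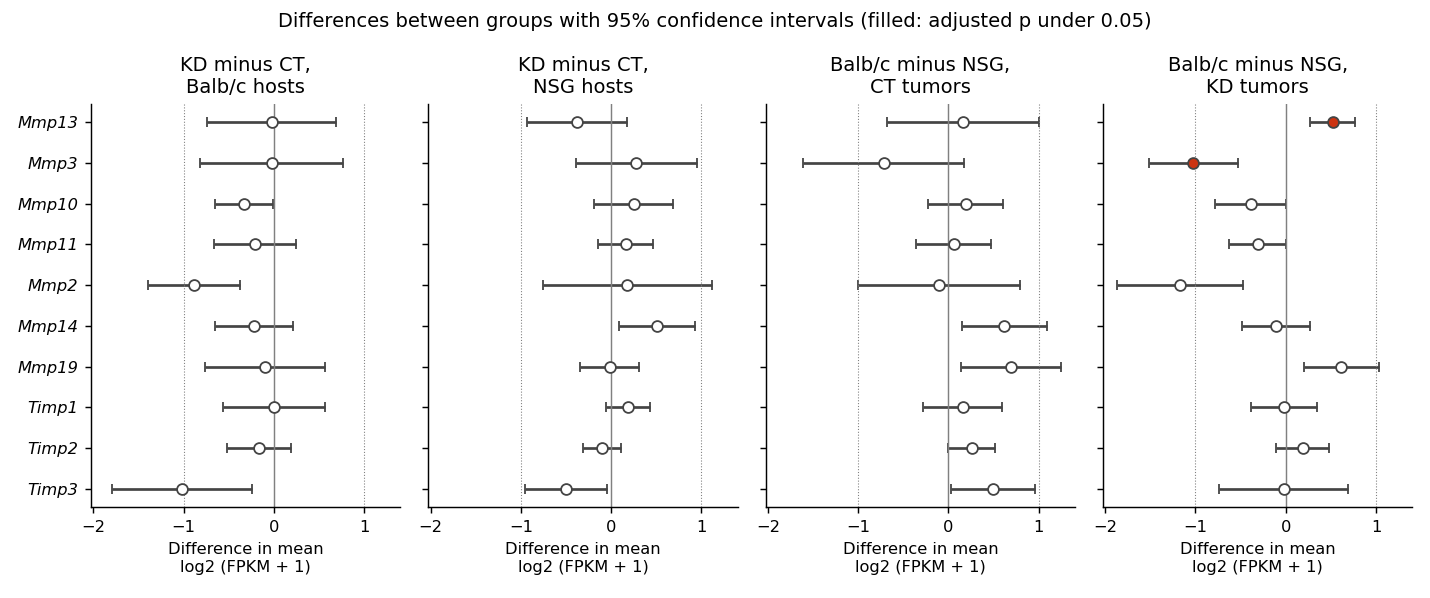
Difference in mean log2 (FPKM + 1) for the 10 members in 4 comparisons, with 95% confidence intervals from limma. Filled points have an adjusted p under 0.05, and dotted lines mark a fold of 2. The 2 filled points are Mmp3 (-1.02) and Mmp13 (0.52) between hosts in KD tumors.

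The second question was how the same genes differed between the hosts. These comparisons use the same tumors as those above. In CT tumors no member was called between Balb/c and NSG, while 1.43% of 14828 genes were. Before adjustment, 3 members were higher in Balb/c at p under 0.05 (Mmp14, Mmp19 and Timp3) and none lower, against 19.3% of all tested genes in either direction. No member separated the hosts without overlap, against 7.57% of genes, and the median difference was 0.18, against 0.0084 over all tested genes. Mmp14 differed by 0.62 (SE 0.21, adjusted p = 0.160) and Timp3 by 0.49 (SE 0.21, adjusted p = 0.236).

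In KD tumors 1 member was called, Mmp3, and 1.39% of 14669 genes were. In all, 3 members separated the hosts without overlap, Mmp3 lower and Mmp13 and Mmp19 higher in Balb/c, against 8.13% of genes in either direction. The median over the 10 members was -0.066, against -0.016 over all tested genes, since higher and lower members were both present.

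Mmp3, a stromelysin that cleaves proteoglycans and activates other MMP proenzymes, was 2.30, 1.86, 1.34 and 3.84 FPKM in Balb/c KD and 4.02, 6.53, 4.38, 7.02 and 6.32 FPKM in NSG KD. The highest Balb/c tumor, 60, was just below the lowest NSG tumor, 26. Mmp3 was lower in Balb/c by -1.02 on the log2 scale (SE 0.22, adjusted p = 0.0333), with p = 0.00794 in the two-sided exact permutation test, the smallest that 4 against 5 tumors allow, and a mean FPKM 2.42 times as high in NSG. This call lies at the edge of both thresholds. It was not made without a filter on low values (adjusted p = 0.0643), with the length trend removed (-0.99, adjusted p = 0.0634) or in a fit of all 4 groups (adjusted p = 0.120). It was also lost on leaving out Balb/c KD 56, 58 or 59 or NSG KD 27, 29 or 30, with adjusted p up to 0.0948, and it held without the 3 libraries of high length slope (-1.29, adjusted p = 0.0265). In CT tumors Mmp3 was 1.51, 3.37, 0.894 and 4.51 FPKM in Balb/c and 3.14, 1.68, 5.59, 5.08 and 9.13 FPKM in NSG. The hosts overlapped there, with a difference of -0.72 (SE 0.40, adjusted p = 0.339), or -1.23 (adjusted p = 0.251) without the libraries of high length slope.

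Mmp13 was 41.3 to 51.7 FPKM in Balb/c KD and 28.1 to 37.2 FPKM in NSG KD, so the 4 Balb/c tumors were above the 5 NSG tumors. The difference was 0.52 (SE 0.11, adjusted p = 0.0305, exact permutation p = 0.00794), which is a fold of 1.44 and under the threshold of 2. The adjusted p was 0.411 in a fit of all 4 groups, 0.0508 without the libraries of high length slope and up to 0.0829 on leaving out 1 tumor, and it was under 0.05 only when that tumor was Balb/c KD 60 or NSG KD 26. In CT tumors the hosts overlapped, with a difference of 0.16 (SE 0.38, adjusted p = 0.821), or 0.46 (adjusted p = 0.404) without the libraries of high length slope. Mmp3 and Mmp13 are neighbours on chromosome 9 and share the promoter letters shown above, and between hosts in KD tumors their differences had opposite signs. Mmp10, from the same cluster, differed by -0.39 (SE 0.18, adjusted p = 0.310), or by -0.051 without the libraries of high length slope.

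Mmp19 was 11.1, 12.7, 10.6 and 20.5 FPKM in Balb/c KD and 8.42, 7.16, 8.60, 10.2 and 7.46 FPKM in NSG KD. The groups did not overlap, and the difference was 0.61 (SE 0.19, adjusted p = 0.122, exact permutation p = 0.00794), or 0.39 (adjusted p = 0.178) without the libraries of high length slope. In CT tumors Mmp19 was 16.9, 20.4, 14.8 and 7.87 FPKM in Balb/c and 6.23, 9.40, 11.5, 8.42 and 7.33 FPKM in NSG. Only Balb/c CT 45 lay within the NSG range, and the difference was 0.70 (SE 0.25, adjusted p = 0.173). Without the libraries of high length slope, of which tumor 45 is 1, it was 0.94 (adjusted p = 0.0340), under the fold of 2. Mmp2 differed between hosts in KD tumors by -1.17 (SE 0.31, adjusted p = 0.0792), and NSG KD 26, at 3.05 FPKM, lay within the Balb/c range.

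Cell markers moved with several of these comparisons, and their part in the member differences was not tested. In Balb/c hosts the summed level of 8 mast cell markers was 129 to 324 FPKM in CT and 43.3 to 96.4 FPKM in KD, none at 0 in all tumors of a group. Of these 8, 6 did not overlap between the groups, all lower in KD, against 3.18% of all tested genes in either direction. None of the 8 was called. Between NSG KD and CT, 0 of the 8 separated the groups without overlap, and their median difference was 0.46. The sum of 5 adipocyte markers was 76.1 to 87.9 FPKM in Balb/c CT and 122 to 217 FPKM in Balb/c KD. Nearly all of it was Fabp4, and the other 3 adipocyte markers tested overlapped between the groups. Of 8 endothelial markers, Cldn5 (1.02, adjusted p = 0.492) and Emcn (0.65, adjusted p = 0.899) were higher in Balb/c KD without overlap, and neither was called. Between hosts, 6 of 8 T cell markers in CT tumors and 7 of 8 in KD tumors were called higher in Balb/c. So were 6 of 6 NK cell markers in both, against calls for 1.43% and 1.39% of all tested genes. Of 5 B cell markers, 4 were tested and 0 called in either comparison. Their sum was 1.96 to 2.89 FPKM in Balb/c CT and 1.62 to 5.87 FPKM in NSG CT. Of 8 mast cell markers, 2 were called higher in Balb/c in CT tumors and 0 in KD tumors. Of 8 endothelial markers, 1 was called higher in Balb/c in each of these 2 comparisons. The T cell sum was 28.4 to 49.3 FPKM in Balb/c CT and 1.13 to 6.31 FPKM in NSG CT, and the NK cell sum 67.1 to 98.7 FPKM and 0 to 0.148 FPKM. In KD tumors 2 of 6 neutrophil markers, S100a8 and S100a9, were called higher in Balb/c, with sums of 205 to 376 FPKM against 49.2 to 144 FPKM. In NSG hosts 8 of 10 macrophage markers were lower and 1 higher in KD at an unadjusted p under 0.05, a criterion that 26.3% of all tested genes passed. None of the 10 was called, and their sums were 1611 to 2383 FPKM in CT and 1252 to 1787 FPKM in KD. There 7 of 8 endothelial markers were higher in KD by the same criterion, with sums of 17.8 to 51.7 FPKM in CT and 42.8 to 57.8 FPKM in KD. In bulk tumors, fewer cells of a type and less RNA per cell cannot be told apart. Of 7 osteoblast markers, Spp1 and Sparc were abundant (322 and 245 FPKM in NSG tumors), while Alpl and Bglap were at 0.213 and 0.112 FPKM. Bglap was at 0 in all Balb/c CT tumors, and Ibsp in all Balb/c KD and all NSG KD tumors. Of the 7, 4 passed the filter on low values in Balb/c KD against CT and 5 in NSG KD against CT.

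The members were also compared across tumors with each group mean subtracted. Of 45 pairs, 7 passed an adjusted p under 0.05 by a two-sided permutation test of Pearson r within groups, 3 positive and 4 negative. Mmp11 and Mmp14 varied together (r = 0.79, adjusted p = 0.0206), as did Mmp10 and Mmp13 (r = 0.63, adjusted p = 0.0206) and Mmp13 and Timp1 (r = 0.67, adjusted p = 0.0299). Negative pairs were Mmp11 with Timp1 (r = -0.76, adjusted p = 0.0206), Mmp14 with Timp1 (r = -0.71, adjusted p = 0.0206), Mmp11 with Mmp13 (r = -0.72, adjusted p = 0.0299) and Mmp2 with Mmp13 (r = -0.63, adjusted p = 0.0299). By Spearman rho the same pairs had values of 0.79, 0.68 and 0.59 and of -0.64, -0.64, -0.73 and -0.60, with permutation p adjusted to 0.0573 for 5 of them and 0.0898 for Mmp13 with Timp1 and Mmp2 with Mmp13. Without the 2 tumors farthest from the median of the first gene, r kept its sign in the 7 pairs, at 0.67, 0.76, 0.57, -0.67, -0.70, -0.55 and -0.71.

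**Figure D4:**
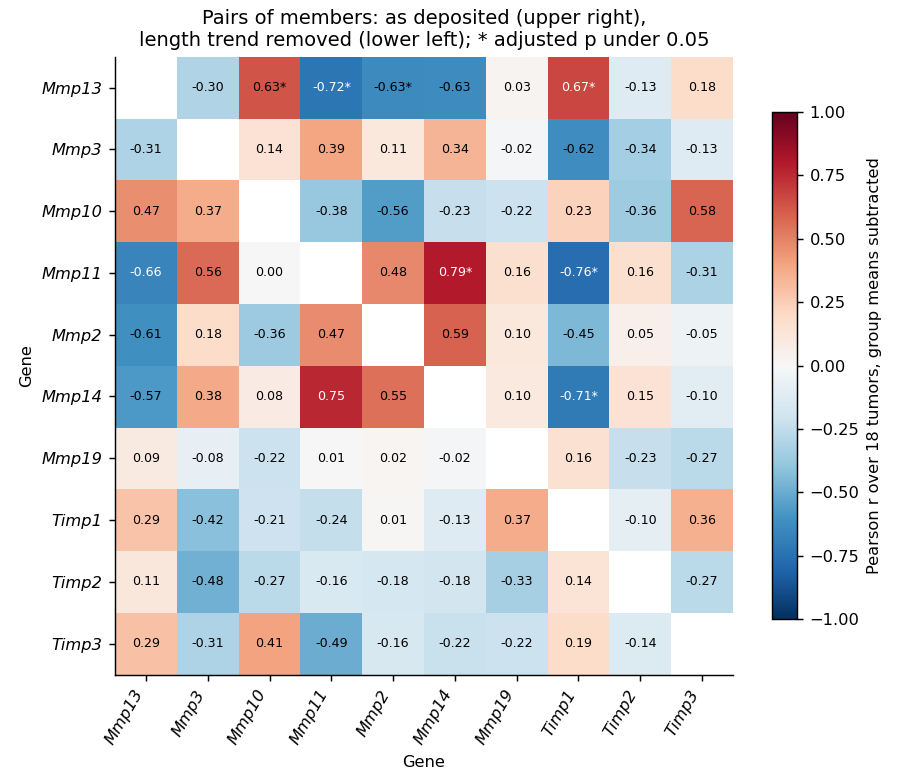
Pearson r of each pair of members over 18 tumors with group means subtracted, from blue (-1) to red (1). The upper right triangle uses the deposited values, where 7 pairs marked by an asterisk had an adjusted p under 0.05, and the lower left triangle uses values with the length trend removed, where none did.

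These relations moved with the libraries of high length slope. The 6 libraries held the lowest Timp1 levels of their groups, and the highest Mmp11 levels, in all 4 groups. Timp1 was 77.8 to 98.6 FPKM in them and 91.6 to 169 FPKM in the other 12. Its longest transcript has 890 bases, the shortest among the members, and that of Mmp11 has 2288 bases. Mmp14 was highest in these libraries in 3 of the 4 groups. Over all 18 libraries 6 of 10 members were related to slope at an adjusted p under 0.05 (Mmp2, Mmp3, Mmp11, Mmp13, Mmp14 and Timp1), but the slopes form separate clusters, so no pooled r is given. Within the 12 libraries of low slope, 0 of 10 members were related to it after adjustment, with r = -0.68 for Timp1 (permutation p = 0.196, adjusted p = 0.653), and among the 6 others groups hold 1 or 2 libraries each. Over the same 12 libraries, 0 of 45 pairs passed and the 7 pairs kept their sign, with r = 0.85 for Mmp10 and Mmp13 (permutation p = 0.0111, adjusted p = 0.500). With the length trend removed over all 18 tumors, 0 of 45 pairs passed. Mmp11 and Mmp14 then had r = 0.75 (adjusted p = 0.0918), while Mmp11 and Timp1 had r = -0.24 (adjusted p = 0.751).

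**Figure D5:**
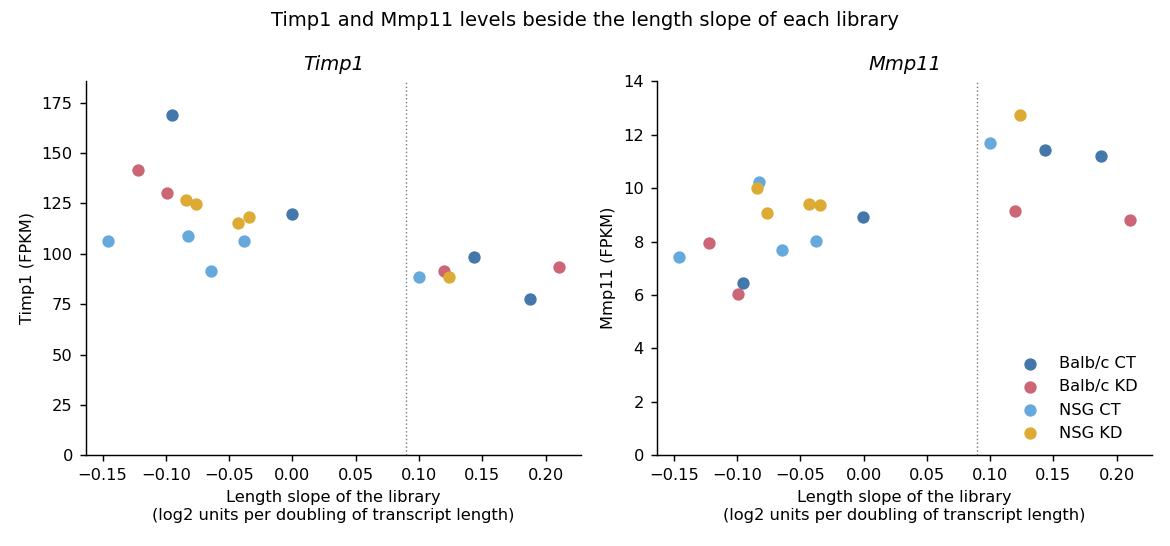
Timp1 (left) and Mmp11 (right) levels in FPKM against the length slope of each library, in log2 units per doubling of transcript length, with a point per tumor coloured by group. The dotted line is at 0.09, and the 6 libraries to its right hold the lowest Timp1 and the highest Mmp11 levels of each group.

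Among 12181 genes averaging 1 FPKM or more, those most like each member over the 18 tumors were found by Pearson r with group means subtracted, given as a description. Timp1 was most like Rexo2 (r = 0.97) and Mterf3 (0.96), Mmp11 most like Hip1r (0.93) and Usp30 (0.92), and Mmp14 most like Dock11 and Zcchc24 (both 0.92). Mmp2 was most like Calu (0.91), Mmp19 most like Coa5 (0.91), Timp3 most like Rsrp1 (0.89), Mmp3 most like Map4k2 (0.89) and Mmp13 most like Fabp5 (0.88). Timp2 was most like Spats2 (0.89) and Mmp10 most like Cmc4 (0.81). No member was among the 3 genes most like another member. All points share the library, so its depth and length slope enter these values.

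Of 16 other MMP genes, 10 passed the filter on low values in each comparison, and 0 were called in any of the 5. The abundant ones were Mmp12, the macrophage elastase, at 92.9 ± 32.8 FPKM, and Mmp9, gelatinase B, at 35.1 ± 8.27 FPKM (SD, n = 18), and the remaining 14 had means of 0.0017 to 5.87 FPKM. Before adjustment, 2 were higher and 3 lower in NSG KD at p under 0.05, and in Balb/c none passed, where 26.3% and 4.14% of all tested genes did. In the interaction of host and shRNA, 1 of these genes was higher and 1 lower at an unadjusted p under 0.05. Of all tested genes, 10.3% passed in either direction. Mmp9, picked out after its values were seen, was 24.5 to 37.5 FPKM in NSG CT and 40.8 to 47.9 FPKM in NSG KD, a difference of 0.61 (SE 0.11, adjusted p = 0.0148) under the fold of 2. Between hosts in KD tumors it differed by -0.42 (SE 0.098, adjusted p = 0.0457), with 30.5 to 38.1 FPKM in Balb/c. Mmp12 differed by -0.51 (SE 0.18, adjusted p = 0.0986) between NSG KD and CT.

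Other inhibitors were lower than the TIMP members. Reck, a membrane-anchored inhibitor, averaged 1.18 FPKM, Timp4 0.181 FPKM and A2m 0.0799 FPKM. Of the 4 genes in this list, 1 passed the filter on low values in Balb/c KD against CT. In NSG KD against CT 3 passed it, and in each of the other comparisons 2 did. Of those tested, 0 were called in any comparison. Of 11 genes of proenzyme activation and the plasminogen system, 10 were tested and 0 called. Plau, the urokinase that makes plasmin, averaged 207 FPKM, its receptor Plaur 134 FPKM and Furin, which activates Mmp11 and Mmp14, 25.4 FPKM. Plg, the plasmin precursor, averaged 0.00074 FPKM. At an unadjusted p under 0.05, 2 of these genes were higher in NSG KD than in NSG CT, against 26.3% of all tested genes in either direction. Between hosts in KD tumors, 4 were lower and 1 higher in Balb/c, against 16.4%.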

How the data were processed

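RNA was read as paired, ribosome-depleted libraries from 18 tumors. The authors aligned reads to mm10 with STAR 2.6.0c, removed duplicates, and quantified RefSeq genes with Cufflinks 2.2.1. The values the authors deposited are log2 (FPKM + 1). The 92 spike-in rows were left out, and no further scaling is named. The log base was checked from the values: the sum of FPKM over genes, weighted by transcript length, was 1.10 to 1.13 times the total that FPKM scaling fixes with base 2, and 8.45 to 11.2 times with the natural log. Of low values, 37.0% to 42.0% lay within 0.1 of a whole fragment (20% by chance), so whole reads were not recovered. The depth is an estimate from these steps, with a fragment length of 160 bases. No columns of the matrix coincided.

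The log2 values were fitted with limma 3.58.1 under R 4.3.3 (eBayes with trend) where a gene averaged 0.1 FPKM or more over the fitted tumors, with Benjamini-Hochberg adjustment over all genes tested. Each comparison used its 2 groups, and the interaction all 4. A call needed an adjusted p under 0.05 and a fold of at least 2. Single members were also compared by exact permutation tests, and pairs by 100000 permutations within groups. The steps were tested on simulated data. Other steps ran in Python 3.11.15. The length trend was removed by a smooth curve of each library's deviations on transcript length. All 10 members are named. The rule was to name Atrx, list genes only where called, single cell markers where called or at 0, and up to 3 genes of the highest r to each member. With their values already seen, some list genes and markers were also picked for their level or for an uncalled difference. The members and lists were chosen with earlier results of these data known. Alternatives were another pseudocount, filters, scaling, library weights with a robust prior, the length trend, all groups in 1 fit, no fold threshold and leaving out each tumor. Leaving out the libraries of high length slope was chosen after seeing the data.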

Additional observations from a re-analysis of the deposited data

Results flagged for a closer look

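In 4 of 40 groups of 4 or 5 tumors, the highest or lowest tumor lay farther from the rest than Dixon's 95% critical value allows, where chance would give about 2 (1 in 20). In NSG KD, tumor 27 was flagged for Mmp11, at 3.78 on the log2 (FPKM + 1) scale against 3.33 to 3.46 in the other 4. The same tumor was flagged for Timp1, at 6.49 against 6.86 to 6.99. It is a library of high length slope. In Balb/c KD, tumor 60, another such library, was flagged for Mmp13, at 5.40 against 5.70 to 5.72. In Balb/c CT, tumor 44 was flagged for Mmp14, at 5.88 against 6.47 to 6.58. That tumor also had the highest Timp1, Timp3 and Mmp13 levels of the 18.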

How the results depend on the processing

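No paired analysis was possible because the groups share no mouse numbers. Of 389 values under alternatives other than leaving out a tumor, 368 kept their direction and side of the threshold, 3 lost and 2 gained a call, and 16 changed sign. Members called between hosts in KD tumors were 1, but 0 with no filter, 0 with the length trend removed, 0 in 1 fit of all 4 groups, 2 with library weights and a robust prior (Mmp2 and Mmp3), 2 with no fold threshold (Mmp3 and Mmp13) and 0 to 2 on leaving out a tumor. In the interaction 1 member was called with library weights and a robust prior, and 0 under the other settings. Pairs past the threshold were 7, and 0 with the length trend removed. The cause was not tested for these changes.

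None of the differences that changed sign was called. The largest of them was the interaction of Timp3, at -0.52. With library weights and a robust prior, Mmp10 (-0.046) and Mmp19 (0.16) changed sign between NSG KD and CT, Mmp2 (0.15) between hosts in CT, Timp1 (0.12) and Timp3 (0.51) between hosts in KD, and Timp3 (0.15) in the interaction. With the length trend removed, Timp1 was -0.049 between Balb/c KD and CT and 0.050 between hosts in KD. With a pseudocount of 0.1, Mmp3 was 0.015 between Balb/c KD and CT. Without the libraries of high length slope, Mmp3 (0.25) and Timp1 (-0.067) changed sign between Balb/c KD and CT, Mmp19 (0.14) between NSG KD and CT, Mmp11 (-0.11) between hosts in CT, Timp1 (0.16) and Timp3 (0.72) between hosts in KD, and Timp3 (0.044) in the interaction. 

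Of 540 values on leaving out 1 tumor, 492 kept direction and side, 6 lost and 1 gained a call, and 41 changed sign. Between Balb/c KD and CT the ranges were -0.29 to 0.23 for Mmp3, -0.34 to 0.24 for Mmp13, -0.36 to 0.066 for Mmp19 and -0.17 to 0.20 for Timp1. Between NSG KD and CT they were -0.090 to 0.47 for Mmp2 and -0.11 to 0.088 for Mmp19. Between hosts in CT they were -0.37 to 0.19 for Mmp2, -0.031 to 0.21 for Mmp11, -0.099 to 0.48 for Mmp13 and -0.039 to 0.33 for Timp1. Between hosts in KD they were -0.20 to 0.017 for Mmp14, -0.13 to 0.076 for Timp1 and -0.27 to 0.24 for Timp3. In the interaction they were -0.34 to 0.080 for Mmp19, -0.35 to 0.017 for Timp1 and -0.18 to 0.022 for Timp2. Low depth limits Mmp10 and Mmp3 most.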

Other observations

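Genes around the members were also read. Of 7 subunits of AP-1, the factor whose letters stand in the promoters of Mmp13, Mmp3 and Mmp10, all were tested and 0 were called in any comparison. Fosl1 averaged 94.9 FPKM, Junb 81.1 FPKM and Jun 66.1 FPKM. At an unadjusted p under 0.05, 3 of 7 were higher in NSG KD than in NSG CT and none in Balb/c, where 26.3% and 4.14% of all tested genes passed in either direction. Jun, picked out after its values were seen, differed there by 0.53 (SE 0.13, limma adjusted p = 0.0400), under the fold of 2.

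Of 12 ADAM and ADAMTS proteases, all were tested and 0 called. The aggrecanase Adamts4 had a mean of 4.46 FPKM in NSG tumors and was higher in NSG KD by 0.90 (SE 0.21, adjusted p = 0.0321), again under the fold of 2 and picked out after its values were seen. Of 11 matrix proteins cut by MMPs, 9 or 10 were tested and 0 called. Col1a2 averaged 391 FPKM, Col1a1 164 FPKM, Col3a1 117 FPKM and Fn1 110 FPKM. At an unadjusted p under 0.05, 4 of these were higher in NSG KD than in NSG CT, and 4 were higher in Balb/c CT than in NSG CT, against 26.3% and 19.3% of all tested genes in either direction.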
